A study of Mus musculus with 31 samples.

Results

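Notch signalling genes were examined in sorted cells of the newborn mouse pancreas: the receptors Notch1, Notch2, Notch3 and Notch4, the ligands Dll1, Dll4, Jag1 and Jag2, and the target genes Hes1 and Hey1. They were chosen by gene name, as the 10 rows with these symbols among the 38283 genes that both expression tables list. A Notch receptor is a membrane protein that is cut when a ligand on a neighbouring cell pulls on it, and the freed intracellular part joins the DNA-binding protein Rbpj to switch on genes such as Hes1 and Hey1, which encode transcriptional repressors. In the developing pancreas the pathway is known for holding epithelial progenitors back from endocrine differentiation. In blood vessels Notch4 and Dll4 belong to the endothelium, and Notch3 is known from pericytes and smooth muscle.

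RNA-seq was made from C57BL/6 pancreata at postnatal day 2, after a fluorescence sort into YFP+ mesenchymal and YFP- non-mesenchymal cells, in 2 mouse models in which Nkx3.2-Cre acts in the mesenchyme. In the H19DMD model the mutants were H19DMDfl/+; Nkx3.2+/Cre and the controls H19DMD+/+; Nkx3.2+/Cre, and the series describes the mutants as overexpressing Igf2. In the Igf2 model the mutants were Igf2+/fl; Nkx3.2Cre/+ and the controls Igf2+/+; Nkx3.2Cre/+. All groups, controls included, thus carry 1 Nkx3.2-Cre allele, and the YFP- cells were sorted as lacking the recombined lineage. Mesenchymal markers were still measured in the YFP- fraction, as given below, so a change there is not shown to lie in unrecombined cells alone. The allele of the YFP reporter is not given in the sources used here.

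Values were available for 21 of the 31 samples: in each fraction of the H19DMD model 3 controls and 4 mutants, and in the non-mesenchymal fraction of the Igf2 model 4 controls and 3 mutants. Mesenchymal cells of the Igf2 model were not analysed here. The unit is FPKM, fragments per length of transcript scaled to the mapped fragments of a library, so levels of different genes can be set side by side, while the absolute depth is unknown. A library listed 17476 to 20918 genes above 0. The labels name separate samples but not the animals, so p-values measure the spread between these samples. As a check of the labels, Igf2 averaged 7040 FPKM ± 800 (SD, n = 4) in H19DMD mutant mesenchyme against 3849 ± 189 (SD, n = 3) in its controls, and H19 averaged 700 ± 123 against 2446 ± 8.11. The limma test described below gave adjusted p values of 0.927 for Igf2 and 0.0458 for H19. The 9 mesenchymal markers summed to between 6039 and 7100 FPKM in mesenchymal controls and to between 168 and 204 in non-mesenchymal controls, although Nkx3-2 itself was at most 0.886 FPKM in mesenchymal controls and listed at 0 in 1 of them.

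Differences below were taken between group means of log2(FPKM + 1), where the change of a low gene looks smaller than it is, and tested with limma on genes averaging 1 FPKM or more in the libraries compared. A gene was called at an adjusted p under 0.05, with the Benjamini-Hochberg adjustment over all genes tested. The exact permutation test over libraries, two-sided, cannot give a p below 0.1 for 3 against 3 libraries or below 0.0286 for 4 against 3 and for 4 against 4. In sorted bulk cells, fewer cells of a type and less RNA per cell cannot be told apart.

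In control libraries the 2 fractions had the same leading receptors, Notch1 and Notch2, and a different leading ligand. Among control libraries of the H19DMD model, Notch3 and Jag1 were higher in mesenchymal cells and Dll1 and Hes1 were lower. In mutant libraries Notch3 and Jag1 were again higher and Hes1 lower. With limma, 4 of the 9 members tested were called in controls, 2 in each direction, where 22.6% of all genes tested were called, 12.4% higher and 10.3% lower. In mutants 4 of 9 were called, 3 higher and 1 lower, where 28.6% of all genes were called, 13.5% higher and 15.1% lower. Jag2 was under the filter in both. The median difference over the 9 members was -0.07 in controls and 0.05 in mutants, beside 0.08 and -0.03 over all genes tested. Median-ratio scaling moved the median of all genes in controls to -0.04, a shift that is small beside the called differences.

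**Figure D1:**
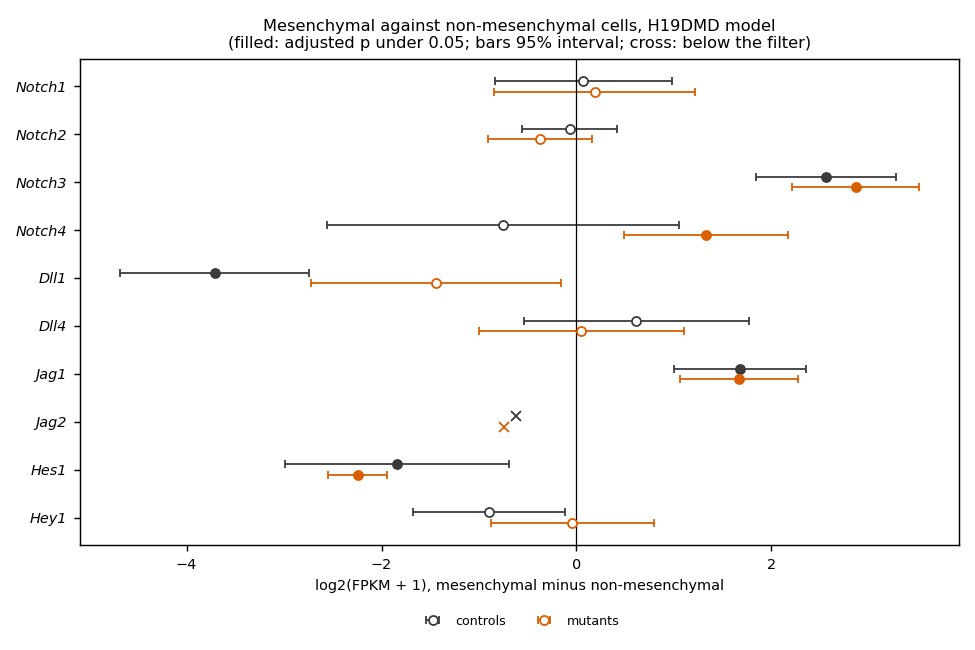
Difference in log2(FPKM + 1) between mesenchymal and non-mesenchymal libraries of the H19DMD model for each of the 10 genes, with its 95% interval, in controls (dark, 3 against 3 libraries) and mutants (orange, 4 against 4). Filled points have an adjusted p under 0.05 and crosses mark Jag2, which was below the filter: Notch3 and Jag1 lie to the right of 0 and Hes1 to the left in both genotypes.

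Among the receptors, Notch1 and Notch2 were expressed at like levels in both fractions. Notch1, a receptor with broad roles in progenitor cells, was 26.6, 29.1 and 23.2 FPKM in the 3 mesenchymal control libraries and 32.0, 34.8 and 13.7 in the 3 non-mesenchymal ones. The groups overlapped, and the difference of 0.07 had a 95% interval of -0.84 to 0.98 (limma adjusted p = 0.919). Under median-ratio scaling it was -0.06. Notch2 was 20.7, 20.6 and 20.1 FPKM in mesenchymal controls and 17.0, 22.5 and 26.2 in non-mesenchymal controls. Its difference of -0.07 had an interval of -0.56 to 0.42 (limma adjusted p = 0.839). These intervals leave room for differences of somewhat under 2-fold for Notch1 and smaller ones for Notch2. In mutants both intervals also included 0.

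Notch3 set the mesenchymal fraction apart. It was 7.46, 9.81 and 14.5 FPKM in mesenchymal controls and 0.814, 0.701 and 1.25 in non-mesenchymal controls. Every mesenchymal control lay above every non-mesenchymal one, the means differing 11.5-fold, with a log2 difference of 2.56 ± 0.29 (SE, limma adjusted p = 0.00205). In mutants it was 14.8, 11.2, 6.28 and 13.1 FPKM in mesenchymal and 0.939, 0.616, 0.282 and 0.757 in non-mesenchymal cells. The groups again did not overlap, and the log2 difference was 2.86 ± 0.28 (SE, limma adjusted p = 0.000146). Notch3 was called in 6 of 6 control fits and 8 of 8 mutant fits that left out 1 library.

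Markers of pericytes and smooth muscle, the cells best known for Notch3, moved with it between fractions. All 9 genes of that list were called higher in mesenchymal controls, and they summed to between 553 and 882 FPKM there and to between 14.2 and 18.0 in non-mesenchymal controls. Within the mesenchymal mutants, libraries 1, 2 and 3 had sums of 856, 519 and 482 FPKM, in the same order as their Notch3 values. The controls had 867, 553 and 882 FPKM and did not follow that order, control 1 having the lowest Notch3. Mutant library 4 departed from it too, with the lowest sum, 216 FPKM, Acta2, the smooth muscle actin, at 34.7 and Notch3 at 13.1 FPKM. The part of these markers in the Notch3 difference was not tested.

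Notch4, the endothelial receptor, varied widely between libraries. It was 3.47, 0.630 and 7.04 FPKM in mesenchymal controls and 2.12, 10.5 and 6.83 in non-mesenchymal controls, which overlap (log2 difference -0.75 ± 0.74, SE, limma adjusted p = 0.515). In mutants it was 3.84, 4.23, 3.24 and 1.35 FPKM in mesenchymal and 0.144, 0.732, 1.45 and 0.304 in non-mesenchymal cells. Here the log2 difference was 1.33 ± 0.37 (SE, limma adjusted p = 0.0277), although mesenchymal library 4 lay below non-mesenchymal library 3. The call was lost in 6 of the 8 fits that left out 1 library, with adjusted p from 0.0537 to 0.0748 (without mesenchymal mutant 1, 2 or 3, or without non-mesenchymal mutant 1, 2 or 4), and in the fit with all 4 groups, at 0.07. Endothelial markers were also higher in the mesenchymal fraction: in mutants the 9 markers summed to between 107 and 203 FPKM in mesenchymal and to between 41.9 and 71.4 in non-mesenchymal libraries, and 4 of 9 were called higher. In controls 4 of 9 were called higher too, with sums of 123 to 156 and 23.8 to 70.9 FPKM. Their part in the Notch4 values was not tested.

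In shares of summed receptor FPKM, mesenchymal controls had 43.3% Notch1, 33.6% Notch2, 17.2% ± 4.83 (SD, n = 3) Notch3 and 5.95% ± 4.89 Notch4, the last 3.5% without library 3. Non-mesenchymal controls had 47.0% Notch1, 40.1% Notch2, 1.73% ± 0.808 (SD, n = 3) Notch3 and 11.2% ± 6.20 Notch4. The summed level of the 4 receptors was nevertheless alike, 61.1 FPKM ± 3.47 (SD, n = 3) in mesenchymal and 56.1 ± 10.9 in non-mesenchymal controls. Mesenchymal mutants had 19.1% ± 5.34 (SD, n = 4) Notch3, and non-mesenchymal mutants 1.34% ± 0.496. Non-mesenchymal libraries of the Igf2 model, normalised in a separate table and with another prefix in their library names, so that model and table cannot be told apart, had 1.36% and 1.45% Notch3 in controls and mutants. Their Notch1 shares were 63.0% and 69.2%.

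**Figure D2:**
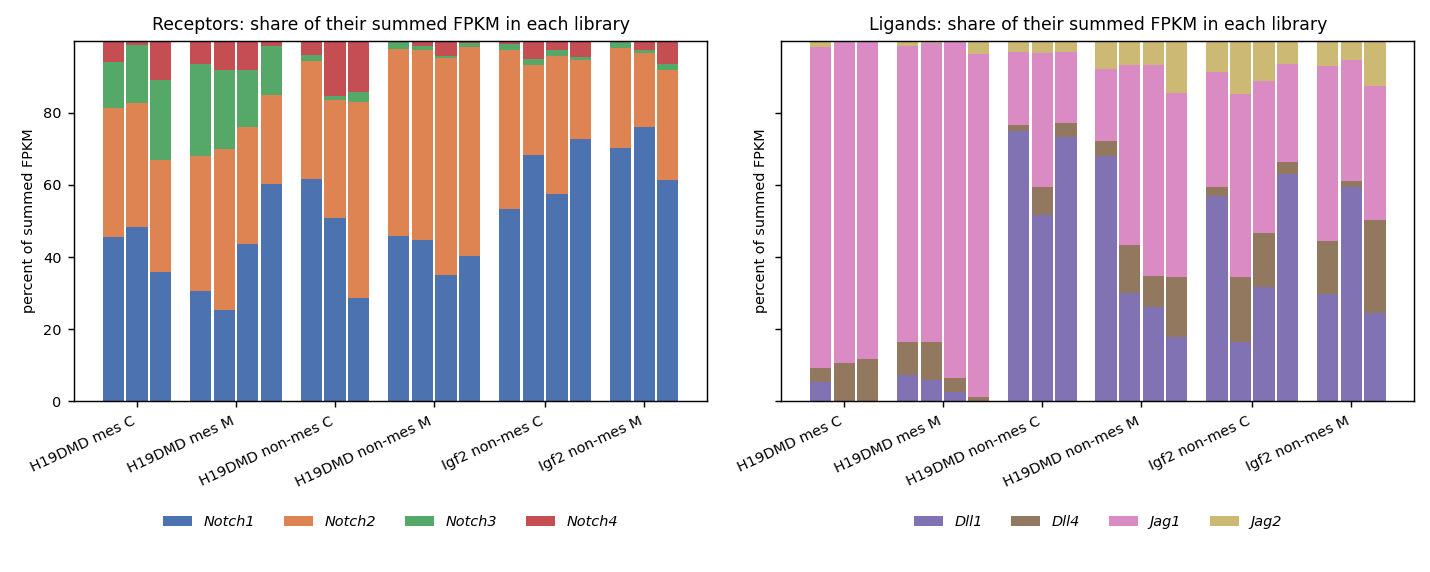
Share of each receptor (left) and each ligand (right) in the summed FPKM of the 4 receptors or 4 ligands, in percent, with 1 stacked bar per library in the 6 groups (mes, mesenchymal; non-mes, non-mesenchymal; C, control; M, mutant). Notch3 averages 17.2% of receptor FPKM in mesenchymal controls and 1.73% in non-mesenchymal controls, and Jag1 takes 88.7% and 25.7% of ligand FPKM in the same groups.

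Among the ligands, Jag1 and Dll1 differed between fractions of controls in opposite directions. Jag1, a ligand of the Jagged family, was 17.7, 18.3 and 28.7 FPKM in mesenchymal controls and 4.84, 7.87 and 5.28 in non-mesenchymal controls. Every mesenchymal control lay above every non-mesenchymal one, by 3.60-fold in the means and 1.68 ± 0.28 on the log2 scale (SE, limma adjusted p = 0.00806). In mutants Jag1 was 23.7, 22.9, 18.0 and 12.3 FPKM in mesenchymal and 3.48, 6.92, 5.20 and 5.67 in non-mesenchymal cells. The groups did not overlap, and the log2 difference was 1.67 ± 0.26 (SE, limma adjusted p = 0.00193).

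Dll1, the Delta ligand known from endocrine progenitors and from lymphoid tissue, ran the other way. It was 17.9, 10.9 and 19.8 FPKM in non-mesenchymal controls, whereas mesenchymal control 1 had 1.08 FPKM and the other two were listed at 0. The log2 difference was -3.71 ± 0.40 (SE, limma adjusted p = 0.00155), with no overlap, and was -6.12 with a pseudocount of 0.1 and -1.96 with a pseudocount of 5. In mutants Dll1 was 11.9, 4.16, 2.34 and 1.98 FPKM in non-mesenchymal and 2.12, 1.63, 0.479 and listed at 0 in mesenchymal cells. Here mesenchymal library 1 lay above non-mesenchymal library 4, and the difference of -1.44 ± 0.56 (SE) was not called (limma adjusted p = 0.0906), though it was called with all 4 groups in the fit (adjusted p = 0.0423).

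Dll4, the Delta ligand of endothelial tip cells and arteries, was low in both fractions, at 0.749, 2.17 and 3.88 FPKM in mesenchymal and 0.424, 1.64 and 1.01 in non-mesenchymal controls. The groups overlapped (log2 difference 0.61 ± 0.47, SE, limma adjusted p = 0.425). Jag2 was lower still. It was 0.351, 0.133 and listed at 0 in mesenchymal controls and 0.741, 0.711 and 0.873 FPKM in non-mesenchymal controls, with no overlap, and mutants gave at most 0.489 and at least 0.609 FPKM. Tested without the filter, Jag2 had a log2 difference of -0.62 in controls (limma adjusted p = 0.0629) and -0.74 in mutants (limma adjusted p = 0.0473).

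As shares of summed ligand FPKM, mesenchymal controls had 88.7% ± 0.859 (SD, n = 3) Jag1 and 1.82% Dll1, while non-mesenchymal controls had 25.7% Jag1 and 66.7% ± 13 Dll1. The summed level of the 4 ligands was 24.4 FPKM ± 7.28 (SD, n = 3) and 24.0 ± 2.91 in these groups. The totals were thus alike, while Jag1 led the ligands in mesenchymal and Dll1 in non-mesenchymal controls. In non-mesenchymal mutants Dll1 led in library 1, with 68.1% against 19.8% Jag1, and Jag1 in libraries 2, 3 and 4, with 49.9%, 58.4% and 51.1%, where Dll1 had between 17.8% and 30%. Non-mesenchymal libraries of the Igf2 model were split, Jag1 having the larger share in 2 of 4 controls and 2 of 3 mutants.

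The proximal promoters of Notch3 and Jag1, which were higher together in mesenchymal cells, and of Dll1, which was lower, are shown as the 250 bases before the RefSeq start (GRCm38.p6, all on the minus strand, 5′ to 3′). They lie at chr17:32166891-32167140 for Notch3, chr2:137116521-137116770 for Jag1 and chr17:15376933-15377182 for Dll1, and capitals mark the GC box GGGCGG on either strand.
Notch3: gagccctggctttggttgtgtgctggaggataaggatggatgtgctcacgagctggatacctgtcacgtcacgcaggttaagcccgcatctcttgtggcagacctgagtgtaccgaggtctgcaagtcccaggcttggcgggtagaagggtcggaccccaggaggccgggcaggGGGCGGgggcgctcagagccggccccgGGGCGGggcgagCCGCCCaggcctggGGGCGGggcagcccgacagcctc
Jag1: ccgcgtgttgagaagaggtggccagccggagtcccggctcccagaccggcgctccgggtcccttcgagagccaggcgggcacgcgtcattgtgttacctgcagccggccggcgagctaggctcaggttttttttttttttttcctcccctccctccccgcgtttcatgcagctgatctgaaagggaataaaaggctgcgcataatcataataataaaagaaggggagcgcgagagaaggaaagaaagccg
Dll1: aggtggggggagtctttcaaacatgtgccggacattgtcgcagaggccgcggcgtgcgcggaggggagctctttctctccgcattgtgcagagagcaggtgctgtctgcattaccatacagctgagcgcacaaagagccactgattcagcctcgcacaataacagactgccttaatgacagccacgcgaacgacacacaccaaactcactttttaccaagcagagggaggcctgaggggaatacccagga
The Notch3 window holds 4 GC boxes and is 68.8% G and C, while the Jag1 and Dll1 windows hold none, at 57.2% and 56.0%. Of the other members, the Notch1, Notch2 and Jag2 windows hold 5 GC boxes each, that of Dll4 holds 2 and that of Notch4 none. A GC box is in 32.7% of the 32851 windows of the same length, whose median is 52.4% G and C. The RBPJ core TGGGAA (in 21.6% of all windows) and the E-box CACGTG that Hes and Hey proteins bind (6.02%) have no match on either strand in the windows of the 8 members in the promoter table, and neither has TATAAA (12.4%). The GC and TATA boxes were searched after the first pair of motifs had given no match. Hes1 and Hey1 are not in that table. A second RefSeq start of Dll1 has a window of 64.0% G and C, also without a GC box.

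In the genome annotation (GENCODE M21, GRCm38) all 10 members are protein-coding. Notch3 (ENSMUSG00000038146, chromosome 17, 32120820 to 32166852, minus strand) overlaps the antisense gene Gm17276, Dll1 (ENSMUSG00000014773, chromosome 17, 15367354 to 15376872, minus strand) overlaps A930024N18Rik on the other strand, and Dll4 (ENSMUSG00000027314, chromosome 2, 119325784 to 119335962, plus strand) overlaps Gm14207 on the other strand. Notch1 (ENSMUSG00000026923, chromosome 2, 26457903 to 26516663, minus strand) and Notch4 (ENSMUSG00000015468, chromosome 17, 34564268 to 34588503, plus strand) also overlap other genes. Notch2 (ENSMUSG00000027878, chromosome 3, 98013527 to 98150361, plus strand) overlaps Gm42819 and Gm42820 on its own strand, and Jag2 (ENSMUSG00000002799, chromosome 12, 112907819 to 112929776, minus strand) overlaps the microRNA gene Mir6941. The use of strand in the authors' counting is not given in the sources used here, so reads from such partners cannot be told apart from these members. Jag1 (ENSMUSG00000027276, chromosome 2, 137081456 to 137116644, minus strand), Hes1 (ENSMUSG00000022528, chromosome 16, 30064384 to 30067796, plus strand) and Hey1 (ENSMUSG00000040289, chromosome 3, 8663359 to 8667256, minus strand) overlap no annotated gene.

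Of the targets, Hes1 was the most abundant member of the whole set by FPKM in the non-mesenchymal groups. It was 33.1, 33.2 and 25.3 FPKM in mesenchymal controls and 52.4, 155 and 167 in non-mesenchymal controls. The groups did not overlap, and the log2 difference was -1.84 ± 0.47 (SE, limma adjusted p = 0.0384). Non-mesenchymal control 1 was far below the other two. The call was lost in 5 of the 6 fits that left out 1 library, with adjusted p from 0.0897 to 0.119, and held without non-mesenchymal control 1 (adjusted p = 0.00262). In mutants Hes1 was 41.8, 42.0, 35.3 and 34.8 FPKM in mesenchymal and 188, 202, 164 and 190 in non-mesenchymal cells, a log2 difference of -2.24 ± 0.13 (SE, limma adjusted p = 1.05e-05) with no overlap that was called in 8 of 8 such fits.

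Hey1, a basic helix-loop-helix repressor like Hes1, was 2.68, 2.75 and 1.21 FPKM in mesenchymal controls and 3.51, 6.06 and 5.22 in non-mesenchymal controls. These groups did not overlap either, but the log2 difference of -0.90 ± 0.32 (SE) was not called (limma adjusted p = 0.102). With Hey1, 5 of the 9 members tested did not overlap between fractions of controls, where 39.9% of all genes tested did not. In mutants 3 of 9 did not overlap, against 31% of all genes, and the Hey1 difference was -0.04.

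**Figure D3:**
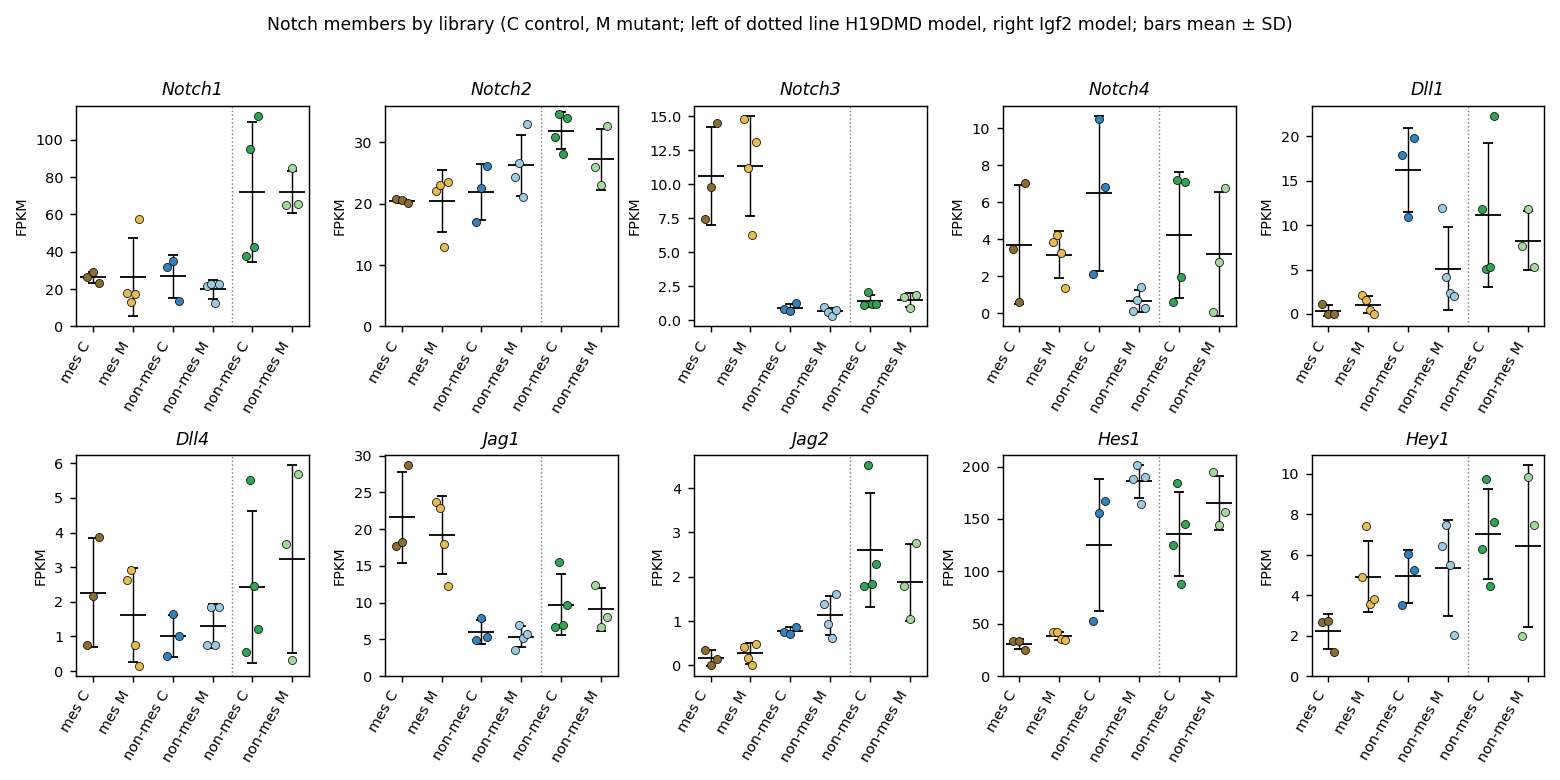
FPKM of each of the 10 genes in every library, with the mean and SD of each of the 6 groups as black bars (C, control; M, mutant; mes, mesenchymal; non-mes, non-mesenchymal). Groups left of the dotted line are of the H19DMD model and groups right of it of the Igf2 model, which were normalised separately: Notch3 and Jag1 stand high in the mesenchymal groups, and Hes1 and Dll1 in non-mesenchymal controls.

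The rest of the pathway was counted in 6 lists with 51 genes. Of 45 tested between fractions of controls, 6 were called higher and 3 lower in mesenchymal cells, and of 45 in mutants 6 were higher and 7 lower. These shares were close to those over all genes, 22.6% in controls and 28.6% in mutants, and say nothing particular to the pathway. On the log2(FPKM + 1) scale the gene with the widest gap in controls was Dlk1, a membrane protein of the Delta family that lacks the receptor-activating domain of the classical ligands, at 596 FPKM ± 26.3 (SD, n = 3) in mesenchymal and 19.2 ± 5.20 in non-mesenchymal controls (log2 difference 4.92, limma adjusted p = 0.000122). In mesenchymal controls it lay far above each classical ligand by FPKM, and in non-mesenchymal controls its level was close to the 16.2 FPKM of Dll1. In mutants the Dlk1 difference was 4.76.

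Heyl, a Hey family repressor, was higher in mesenchymal controls, at 16.9 FPKM ± 1.81 (SD, n = 3) against 3.01 ± 0.321 (log2 difference 2.15, limma adjusted p = 0.000683), whereas Hey1, given above, was not called. Sox9, a transcription factor of ducts and progenitors, was lower, at 1.36 ± 0.812 against 51.6 ± 12.6 FPKM (log2 difference -4.51, limma adjusted p = 0.000466), and by the ratio of means its gap, 37.9-fold, was wider than the 31-fold of Dlk1. The cell cycle gene Ccnd1 was also lower, at 24.2 ± 5.92 against 117 ± 18.9 FPKM (log2 difference -2.24, limma adjusted p = 0.00177). Of the 9 other targets 7 were tested in controls, with 1 higher and 2 lower.

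Among the genes that process the receptors and ligands or act with them in the nucleus, 5 were called between fractions of controls, where 22.6% of all genes were. Of 5 glycosylation genes 1 was called, Pofut1, which adds the first sugar to Notch repeats, higher by 1.32. Of 9 tested proteolysis genes 1 was called, the gamma-secretase subunit Psenen, lower (difference -1.27). Of 11 genes of the nuclear complex 1 was called, the coactivator Maml2, higher by 0.96. Of 12 genes of ligand endocytosis and Notch turnover 2 were called, both higher: Dtx3, of the Deltex family, by 1.90, and the Numb relative Numbl by 1.82. The limma adjusted p values of these 5 genes ranged from 0.00689 to 0.0183. The list medians were 0.04 for glycosylation, 0.06 for proteolysis, 0.23 for the nuclear complex, 0.33 for endocytosis and turnover and -0.18 for the other targets, beside 0.08 over all genes.

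In the H19DMD mutants no member was called within mesenchymal cells. The 8 members tested all had a limma adjusted p of at least 0.927, where 0.0694% of all genes were called, and Dll1 and Jag2 were below the filter. The receptors were alike between genotypes on average: the differences were -0.24 for Notch1, -0.04 for Notch2, 0.08 for Notch3 and 0.04 for Notch4, and all 4 overlapped. Both target genes had higher values in each mutant library than in any control. In these libraries 7 of the 9 pericyte and smooth muscle markers had a negative difference and 0 were called in limma, with sums of 553 to 882 FPKM in controls and 216 to 856 in mutants, and their part in the values of the targets was not tested. At an unadjusted p under 0.05 limma gave 1 of the 8 members, where 4.76% of all genes tested had one. The median difference over the 8 members was -0.00246, beside -0.07 over all genes.

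Hey1 was 4.92, 7.40, 3.55 and 3.81 FPKM in mesenchymal mutants and 2.68, 2.75 and 1.21 in controls, 2.23-fold in the means. The log2 difference was 0.88 ± 0.33 (SE, unadjusted limma p = 0.0305, adjusted p = 0.927), and the exact permutation p was 0.0286, the smallest the test can give. Hes1 was 41.8, 42.0, 35.3 and 34.8 FPKM in mutants and 33.1, 33.2 and 25.3 in controls, with a log2 difference of 0.33 ± 0.17 (SE, limma adjusted p = 0.927) and the same exact permutation p of 0.0286. Leaving out 1 library at a time gave 0.63 to 1.01 for Hey1 and 0.20 to 0.39 for Hes1. These 2 of 8 tested members did not overlap, both higher, where 5.39% of all genes did not overlap and 1.62% were higher.

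The mesenchymal mutants were not uniform. Library 4 had 57.6 FPKM of Notch1, when the other mutants had 17.9, 13.1 and 17.3 and the controls 23.2 to 29.1. Without that library the Notch1 difference was -0.68. Notch2 was 22, 23.1 and 23.5 FPKM in mutant libraries 1, 2 and 4 and 12.9 in library 3. Library 4 also had the lowest smooth muscle sum of the group, given above, the lowest Jag1 (12.3 FPKM) and the lowest Dll4 (0.145 FPKM). Jag1 in the other mutants was 23.7, 22.9 and 18.0 FPKM, against 17.7, 18.3 and 28.7 in controls (difference -0.17, 95% interval -0.85 to 0.51).

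**Figure D4:**
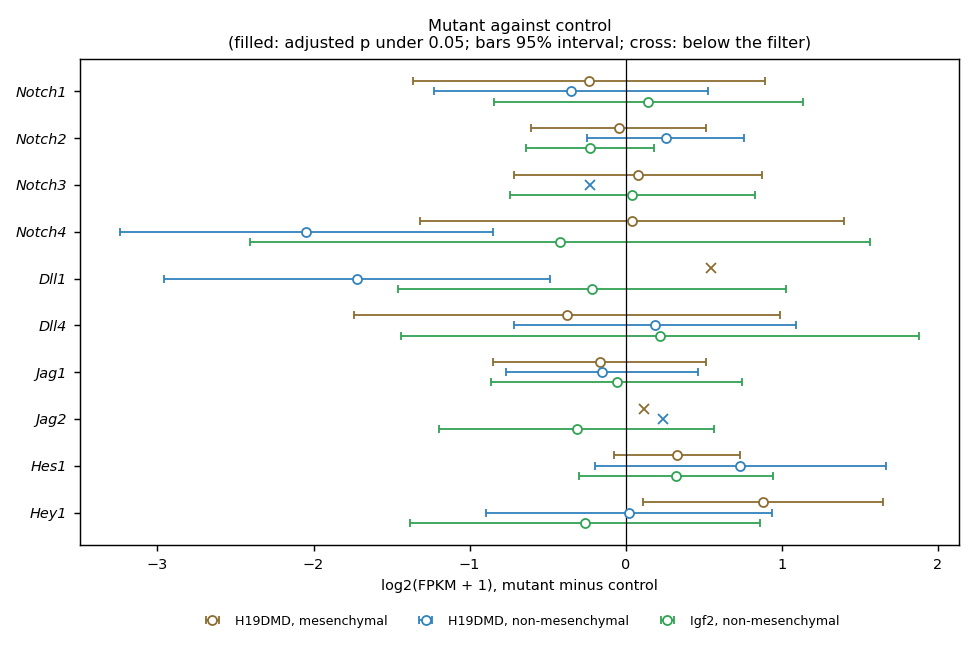
Difference in log2(FPKM + 1) between mutant and control libraries for each of the 10 genes, with its 95% interval, in mesenchymal cells of the H19DMD model (brown, 4 mutants against 3 controls), non-mesenchymal cells of the H19DMD model (blue, 4 against 3) and non-mesenchymal cells of the Igf2 model (green, 3 against 4). No point is filled, since none had an adjusted p under 0.05, and crosses mark genes below the filter; the intervals of Notch4 and Dll1 in blue and of Hey1 in brown do not include 0.

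In non-mesenchymal cells of the H19DMD model, Notch4 and Dll1 had the lowest values relative to controls, and no member was called. The 8 members tested had limma adjusted p values of at least 0.892, where 0.0677% of all genes were called, and Notch3 and Jag2 were below the filter. At an unadjusted p under 0.05 there were 2 members, where 5.35% of all genes had one. The median over the 8 was -0.06, beside 0.05 over all genes. Notch4 was 0.144, 0.732, 1.45 and 0.304 FPKM in mutants and 2.12, 10.5 and 6.83 in controls, means of 0.657 and 6.48. Each mutant lay below each control, the 1 tested member of 8 without overlap, where 5.68% of all genes did not overlap and 2.2% were lower. The log2 difference was -2.05 ± 0.51 (SE, unadjusted limma p = 0.00474, adjusted p = 0.892), and the exact permutation p was 0.0286. It lay between -2.58 and -1.64 with 1 library left out, and was -3.20 with a pseudocount of 0.1 and -0.96 with a pseudocount of 5.

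Endothelial markers were set beside Notch4. The 9 endothelial markers summed to 23.8, 56.6 and 70.9 FPKM in non-mesenchymal controls and to 49.9, 71.4, 49.0 and 41.9 in mutants, which overlap. Of these markers 4 had a positive and 5 a negative difference and limma called none of the 9. Egfl7 averaged 24.9 FPKM in mutants and 15.6 in controls, while Tek (1.22 against 3.81), Cdh5 (4.05 against 6.40) and Pecam1 (8.83 against 11.8) averaged lower, and the part of these genes in the Notch4 values was not tested. Dll4, the other vascular member, was 0.742, 1.86, 0.763 and 1.84 FPKM in mutants and 0.424, 1.64 and 1.01 in controls (difference 0.19 ± 0.38, SE, limma adjusted p = 0.957).

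Dll1 was 11.9, 4.16, 2.34 and 1.98 FPKM in non-mesenchymal mutants and 17.9, 10.9 and 19.8 in controls. Mutant 1 lay above control 2, and the other three lay below every control. The log2 difference was -1.72 ± 0.53 (SE, unadjusted limma p = 0.0131, adjusted p = 0.892), with an exact permutation p of 0.0857, and it stayed between -2.17 and -1.46 with 1 library left out. Dll1 made up 66.7% ± 13 (SD, n = 3) of ligand FPKM in controls and 35.5% ± 22.3 (SD, n = 4) in mutants, and the ligand sum was 24.0 ± 2.91 and 12.8 ± 3.72 FPKM.

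Markers of other cells that the YFP- gate can hold were set beside Dll1 and Notch4. The 5 of 7 erythroid markers found in the table summed to 114, 368 and 113 FPKM in controls 1 to 3 and to 140, 590, 966 and 1497 in mutants 1 to 4. All 5 had a positive difference, with a median of 1.70 and 0 called in limma, the sums overlapped between genotypes, and among the mutants they ran in the opposite order to Dll1. The 7 leukocyte markers in the table summed to between 114 and 155 FPKM in controls and between 97.8 and 148 in mutants, with 3 positive and 4 negative differences and 0 called. Within that list the T cell gene Cd3e was 36.6, 22.1 and 31 FPKM in controls and 17.1, 3.78, 3.56 and 3.36 in mutants, and the B cell gene Cd79a was 14.6, 19.6 and 14.1 and 9.08, 4.06, 3.60 and 7.77. These 2 genes were singled out after their values were seen, and in both each mutant lay below each control, with mutant 1 highest as for Dll1. Other genes of the list went the other way: the macrophage and monocyte genes Cd68, Csf1r and Cd14 averaged 46.7, 18.6 and 8.91 FPKM in mutants and 31.7, 13 and 6.19 in controls. The 10 endocrine markers summed to between 19262 and 29098 FPKM in controls and between 10719 and 19876 in mutants, with 8 negative differences and 0 called, while Neurog3, the defining gene of endocrine progenitors, averaged 3.67 FPKM ± 2.15 (SD, n = 3) and 4.07 ± 1.46 (SD, n = 4). The 10 acinar markers summed to between 37475 and 101142 FPKM in controls and between 44676 and 62284 in mutants, and all 8 tested had a negative difference, with a median of -0.25 and 0 called. Mesenchymal genes were measured in this fraction too. The 9 mesenchymal markers summed to between 168 and 204 FPKM in controls and between 161 and 282 in mutants, which overlap. Of the 7 tested 6 had a positive difference, with a median of 0.22 and 0 called in limma. Igf2 averaged 48.2 FPKM in controls and 108 in mutants, with overlap (exact permutation p = 0.114). The part of all these genes in the Dll1 and Notch4 values was not tested.

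**Figure D5:**
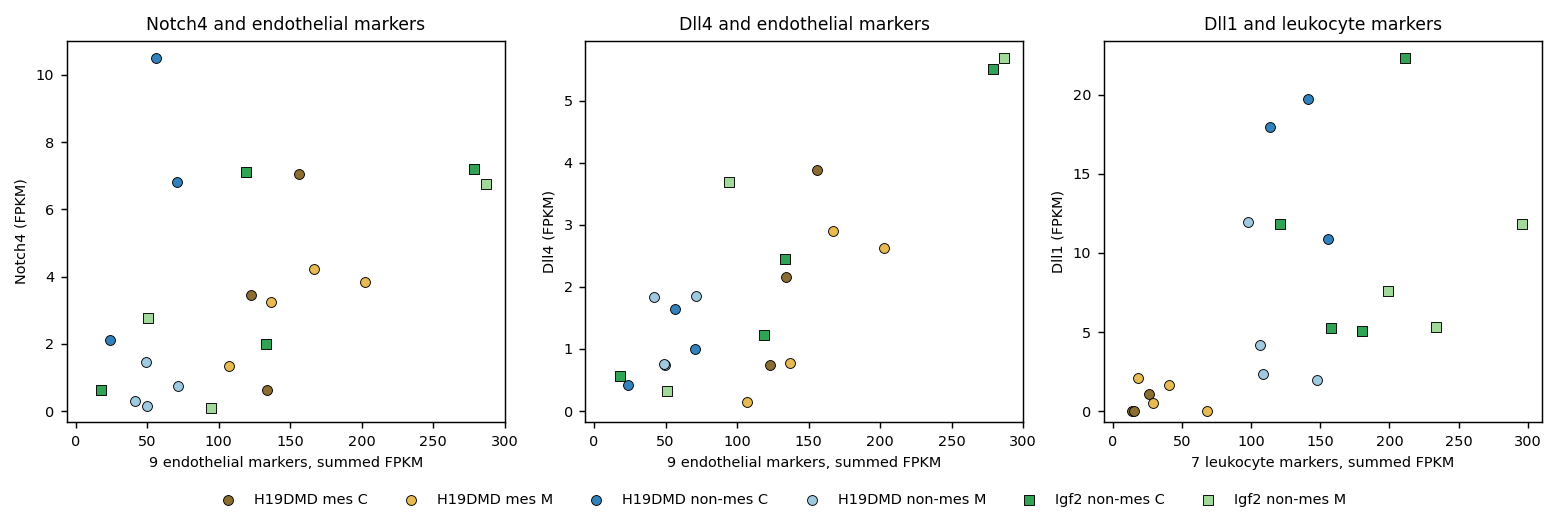
FPKM of Notch4 (left) and Dll4 (centre) against the summed FPKM of 9 endothelial markers, and of Dll1 (right) against the summed FPKM of the 7 leukocyte markers in the tables, with 1 point per library; circles are the H19DMD model and squares the Igf2 model, which were normalised separately. The 4 non-mesenchymal mutants of the H19DMD model lie at 0.144 to 1.45 FPKM of Notch4, and their endothelial sums, 41.9 to 71.4 FPKM, overlap those of their controls, 23.8 to 70.9 FPKM. Of the 9 markers 4 had a positive and 5 a negative difference there, and their part in the Notch4 values was not tested.

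The remaining members overlapped between genotypes in non-mesenchymal cells. Hes1 was 188, 202, 164 and 190 FPKM in mutants and 52.4, 155 and 167 in controls (log2 difference 0.74 ± 0.40, SE, limma adjusted p = 0.894), and the other three mutants lay above every control while mutant 3 lay below control 3. Without control 1 the difference was 0.20. The 8 ductal markers, cells in which Hes1 is known to be active, summed to 993, 1547 and 1395 FPKM in controls, lowest in the same control 1, and to between 1105 and 1893 in mutants. All 8 had a positive difference, with a median of 0.33 and 0 called in limma, and their part in the Hes1 values was not tested. Hey1 differed by 0.02, Jag1 by -0.15, Notch1 by -0.35 and Notch2 by 0.26, all with overlap. Jag2 was 1.38, 0.924, 0.609 and 1.60 FPKM in mutants, of which 3 lay above and 1 below the controls' 0.711 to 0.873, and Notch3 was at most 0.939 and at most 1.25 FPKM.

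The mutant effects of the 2 fractions were compared with each other as an interaction. With limma none of the 9 members tested was called, where 0.0117% of all genes were, and 2 had an unadjusted p under 0.05, where 6.35% of all genes did. These 2 were Dll1 and Notch4. Dll1 passed the filter here only through the non-mesenchymal libraries: in mesenchymal cells it averaged 1.06 FPKM in mutants and 0.361 in controls and was listed at 0 in 3 of 7 libraries, a level from which a fall like the -1.72 of non-mesenchymal cells could not be seen. Its interaction therefore largely restates that value. The Notch4 interaction was 2.09 ± 0.79 (SE, limma adjusted p = 0.755; exact permutation p = 0.0702). The other members gave 0.11 (Notch1), -0.30 (Notch2), 0.31 (Notch3), -0.57 (Dll4), -0.02 (Jag1) and -0.41 (Hes1), with Jag2 below the filter. Notch3 passed the filter here only through the mesenchymal libraries. In non-mesenchymal cells it averaged 0.922 FPKM in controls and 0.649 in mutants, levels too low for its mutant effect to be tested there. Hey1 gave 0.86 with a 95% interval of -0.26 to 1.97, so its mutant effect in mesenchymal cells was not shown to differ from that in non-mesenchymal cells. Median-ratio scaling moved the median interaction of all genes from -0.11 to -0.00225.

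In non-mesenchymal cells of the Igf2 model none of the 10 members was called, and all 10 overlapped between genotypes. Limma adjusted p values were at least 0.919, where 0.0631% of all genes were called, and 0 of 10 had an unadjusted p under 0.05, where 5.28% of all genes did. Of all genes 6.02% did not overlap. The median over the 10 was -0.14, beside -0.03 over all genes. Notch1 was the receptor with the highest level, at 37.4, 95.1, 42.4 and 113 FPKM in controls and 65.1, 84.8 and 65.6 in mutants. The difference of 0.14 had a 95% interval of -0.84 to 1.13. Hes1 was 125, 184, 87.7 and 145 FPKM in controls and 195, 144 and 157 in mutants, a difference of 0.32 with an interval of -0.30 to 0.94.

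The vascular members ranged widely among these libraries. Notch4 was 0.624, 7.19, 1.99 and 7.10 FPKM in controls and 0.0795, 2.77 and 6.77 in mutants. Dll4 was 0.562, 5.51, 2.44 and 1.22 FPKM in controls and 3.68, 0.326 and 5.69 in mutants. The endothelial markers summed to 18.1, 279, 133 and 119 FPKM in controls and 94.4, 50.8 and 287 in mutants, so that control 2 and mutant 3, with the highest sums, also had the highest Dll4 and Notch4 of their groups. Other libraries did not follow the sums: mutant 1 had less Notch4 than mutant 2, which had the lowest sum of the mutants, and control 4 had nearly as much Notch4 as control 2. Their part in the values of both genes was not tested.

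The ligands Dll1 and Jag1 were spread likewise. Dll1 was 11.8, 5.08, 5.25 and 22.3 FPKM in controls and 7.60, 11.9 and 5.33 in mutants (difference -0.22, 95% interval -1.46 to 1.03). Jag1 was 6.61, 15.6, 6.99 and 9.66 FPKM in controls and 12.4, 6.69 and 8.09 in mutants (difference -0.06, interval -0.86 to 0.74). Notch2 was 28.1 to 34.6 FPKM in controls and 23.0 to 32.7 in mutants (difference -0.23, interval -0.64 to 0.18). Jag2 was 1.80, 4.51, 1.83 and 2.28 FPKM and 1.79, 1.05 and 2.77, Notch3 1.11 to 2.07 and 0.873 to 1.84, and Hey1 4.47 to 9.74 and 2.00 to 9.84.

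Among the other pathway genes none was called in the 3 comparisons of mutants with controls or in the interaction. With limma at an unadjusted p under 0.05 there were 1 of 44 genes in mesenchymal and 3 of 45 in non-mesenchymal cells of the H19DMD model, 1 of 46 in the Igf2 model and 4 of 46 in the interaction. Of all genes 4.76%, 5.35%, 5.28% and 6.35% had such a p in these comparisons, so the counts are near the background. The gene in the Igf2 model was Ccnd1, at 93.8 FPKM ± 22 (SD, n = 3) in mutant against 162 ± 20.8 (SD, n = 4) in control libraries, without overlap (difference -0.80 ± 0.20, SE, limma adjusted p = 0.919; exact permutation p = 0.0286). In the same libraries the 10 acinar markers summed to between 81772 and 94329 FPKM in mutants and between 28176 and 40300 in controls, without overlap. Of the 9 tested 8 had a positive difference, with a median of 1.05 and 0 called in limma, and their part in the Ccnd1 and member values was not tested.

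By FPKM, which is per length, the members ranked as follows in controls of the H19DMD model. In mesenchymal controls Hes1 averaged 30.5 FPKM ± 4.52 (SD, n = 3), Notch1 26.3 ± 2.92, Jag1 21.6 ± 6.22 and Notch2 20.5 ± 0.308, and the ranges of neighbours in this order overlapped. Notch3 followed at 10.6 ± 3.60, then Notch4 at 3.71 ± 3.21, Dll4 at 2.26 ± 1.57 and Hey1 at 2.21 ± 0.870, which overlap, and Dll1 and Jag2 averaged 0.361 and 0.161. In non-mesenchymal controls the order was Hes1 at 125 ± 63.0, Notch1 at 26.8 ± 11.5, Notch2 at 21.9 ± 4.60, Dll1 at 16.2 ± 4.68, Notch4 at 6.48 ± 4.20, Jag1 at 6.00 ± 1.64, Hey1 at 4.93 ± 1.30, Dll4 at 1.02, Notch3 at 0.922 and Jag2 at 0.775. The ranges of Notch1, Notch2 and Dll1 overlapped, as did those of Notch4, Jag1 and Hey1 and those of Dll4, Notch3 and Jag2. The order was another in non-mesenchymal mutants, where Notch2 averaged 26.3 FPKM ± 4.99 (SD, n = 4), Notch1 19.9 ± 5.10, Hey1 5.35 ± 2.37, Jag1 5.32 ± 1.43, Dll1 5.10 ± 4.65 and Notch4 0.657 ± 0.582. The ranges of Notch2 and Notch1 overlapped there, as did those of Hey1, Jag1 and Dll1, while Notch4 lay below all of these.

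Likeness of other genes to each receptor was described over the 14 H19DMD libraries, which share the contrast of fractions, as Pearson's r of log2(FPKM + 1) among 9028 protein-coding genes averaging 5 FPKM or more (9029 for Notch4). Notch3 was most like Adam19 (r = 0.990), Ndn (0.986) and Cygb (0.985), over the range that the 2 fractions span. Within the 7 mesenchymal libraries these r were 0.866, 0.939 and 0.719, and within the 7 non-mesenchymal ones, where Notch3 is low, 0.745, 0.348 and 0.731. Notch2 was most like Eif4a3 (0.912), Eef2 (0.910) and Sin3b (0.909), and these r were at least 0.849 within either fraction. Notch1 was most like Birc2 (0.797), Usp14 (0.788) and Coq7 (0.752), and Notch4 most like Tbp (0.746), Lgalsl (0.715) and Cdkn2c (0.713). For Notch1 these r were 0.915, 0.911 and 0.700 within mesenchymal libraries, which include mutant 4 with its high Notch1. Within non-mesenchymal libraries they were 0.579, 0.604 and 0.860. For Notch4 they were 0.775, 0.665 and 0.610, and 0.864, 0.794 and 0.739. How high the best r of so many genes runs by chance was not tested.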

How the data were processed

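The authors deposited 1 table of FPKM values per model, the unit being given per the file headers. The submitters' processing notes name TopHat2 2.0.8, Cufflinks 2.2.1 and GRCm38, without their roles; the annotation and the use of strand are not given in the sources used here. Per the labels' protocols the RNA of the sorted cells was amplified as whole transcriptome before single-end sequencing, which can widen the spread of low genes. Each column was assigned through the library name that the labels give for a sample, and 8 columns without values were not used. The depth is unknown, so counting error cannot be separated from the rest of the spread between libraries in the errors given.

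From these values log2(FPKM + 1) was computed and fitted with limma 3.58.1 in R 4.3.3 (lmFit, eBayes with trend, two-sided), on genes averaging 1 FPKM or more, with Benjamini-Hochberg adjustment at 0.05 over all genes tested, and only the groups compared in a fit. The scripts were tested on simulated data. The models have separate tables, so every test stays within a table. Exact permutation tests over libraries are given for single genes. The smallest exact p is 0.0286 or 0.1.

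All 10 members are named in every comparison. From 6 lists of other pathway genes, up to 4 called genes a list are named by the largest difference between fractions of controls. For each receptor the 3 most similar genes are named. Members, lists and tests were chosen with earlier results of these data known. Alternatives were other pseudocounts (0.1 and 5), filters (none and 5 FPKM), median-ratio scaling, no variance trend, all groups in the fit, the replicate number as a block and leaving out each library. Promoters are from RefSeq (GRCm38.p6) and positions from GENCODE M21.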

Additional observations from a re-analysis of the deposited data

Results flagged for a closer look

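In 4 of the 30 groups of 4 libraries examined, 10 genes in each of 3 groups, 1 library stood far from the other three by Dixon's criterion, which chance meets in about 5% of groups. In mesenchymal H19DMD mutants the highest Notch1 value was 57.6 FPKM, in library 4, and the lowest Notch2 value was 12.9 FPKM, in library 3. In non-mesenchymal H19DMD mutants the lowest Notch1 value was 12.3 FPKM, in library 3. In non-mesenchymal controls of the Igf2 model the highest Notch3 value was 2.07 FPKM, in library 2.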

How the results depend on the processing

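Across the alternatives 741 of 822 differences of single members kept their direction and their side of the threshold, and the number of members called stayed at 3 or 4 between fractions of controls, 3 to 5 between fractions of mutants and 0 elsewhere, where so few genes are called that a count of 0 shows no stability. With all libraries kept, and beside the replicate block described below, the calls that changed were Notch4 between fractions of mutants (adjusted p = 0.07 with all groups in the limma fit) and Dll1 there (0.0423 with all groups); Jag2 was called there without the filter. Reversals were all of differences that were not called. Median-ratio scaling gave 0.0315 for Notch2 in H19DMD mesenchyme, -0.0201 for Hey1 in H19DMD non-mesenchymal cells, -0.0623 for Notch1 between fractions of controls and 0.112 for the Jag1 interaction. A pseudocount of 0.1 gave -0.169 for Dll4 between fractions of mutants and 0.00314 for the Jag1 interaction, and a pseudocount of 5 gave -0.0394 for Notch4 in H19DMD mesenchyme. The cause was not tested. The pseudocount also set the size of differences of low genes: between 0.1 and 5 it gave 3.37 and 1.37 for Notch3 between fractions of controls, 3.96 and 1.5 in mutants, where Notch4 had 2.34 and 0.52 and Dll1 -2.55 and -0.66, with the direction kept.

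Leaving out each library moved differences that were not called across 0. In H19DMD mesenchyme the ranges were -0.682 to 0.00262 for Notch1, -0.122 to 0.152 for Notch2, -0.127 to 0.313 for Notch3, -0.587 to 0.564 for Notch4 and -0.287 to 0.0486 for Jag1. In H19DMD non-mesenchymal cells they were -0.0407 to 0.404 for Dll4, -0.271 to 0.0310 for Jag1 and -0.162 to 0.349 for Hey1. In the Igf2 model they were -0.110 to 0.412 for Notch1, -0.0691 to 0.232 for Notch3, -1.07 to 0.353 for Notch4, -0.484 to 0.175 for Dll1, -0.253 to 0.914 for Dll4, -0.284 to 0.176 for Jag1 and -0.630 to 0.298 for Hey1. Between fractions of controls they were -0.338 to 0.307 for Notch1 and -0.234 to 0.0621 for Notch2. Between fractions of mutants they were -0.262 to 0.423 for Notch1, -0.203 to 0.387 for Dll4 and -0.370 to 0.128 for Hey1. For the interaction they were -0.334 to 0.523 for Notch1, -0.199 to 0.201 for Jag1 and -0.700 to 0.126 for Hes1.

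Libraries share replicate numbers across groups, and the labels do not say whether same-numbered fractions came from the same animal. Between fractions of controls, deviations of same-numbered libraries correlated at 0.0154 to 0.0675, against -0.0414 to 0.0191 for other numbers. Between fractions of mutants the values were 0.00553 to 0.0440 against -0.0569 to 0.0313. These ranges overlap, so the check did not settle whether the fractions are paired, and the main fits did not pair them. With the number as a block, 3 members were called between fractions of controls, where Hes1 had an adjusted p of 0.0822 (limma), and 5 in mutants, where Dll1 had 0.0225. The block also gave -0.00428 for Notch3 and 0.0207 for Jag1 in H19DMD mesenchyme and 0.175 for Dll1 in the Igf2 model.

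The number of all genes called was 11 in each comparison of mutants with controls, with 5 (mesenchymal) and 1 (non-mesenchymal) when all H19DMD groups were fitted, 7, 5 and 2 (Igf2 model) with the block, and 13 to 27, 14 to 34 and 14 to 37 without 1 library. Between fractions it was 3785 in controls and 4802 in mutants, and 2448 and 3148 at a mean of 5 FPKM or more. For the interaction it was 2, with 6 at a pseudocount of 0.1 or without a filter, and 2 to 9 without 1 library. All groups in 1 fit is no alternative for the Igf2 table, which has values for 2 groups. With 3 or 4 libraries a group and unknown depth, differences as small as those between most mutants and controls here could not be told from the spread.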
